A study of Sus scrofa with 12 samples.

Results

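Methionine, cysteine and sulfide metabolism was described in the liver of Jinhua (JH) and Landrace (LD) pigs through 10 genes: MAT1A, GNMT and BHMT of the methyl cycle, CBS, CTH and CDO1 of transsulfuration and cysteine oxidation, and SQRDL, ETHE1, TST and SUOX of sulfide oxidation. The genes were chosen by their symbols as textbook enzymes of the pathway, at a time when the RPKM values (reads per kilobase of gene, scaled to library depth) of these libraries were known, and SQRDL was singled out by its values of 0 in libraries of both breeds. Of the 31694 genes listed in each library, 8 were matched to these 10 by symbol, and CBS and TST were not analysed here. SUOX was listed at 0 in all 6 libraries and SQRDL in 2, so that 6 members were above 0 in every library.

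The JH group was 3 pigs of a slow-growing Chinese breed that deposits much fat, labelled as the experiment, and the LD group was 3 pigs of a fast-growing lean breed, labelled as the control. All 6 were uncastrated males of 70 days of age, and 1 mRNA library was made from the liver of each. The comparison asked how gene expression in the liver differs between the breeds. Breed is the only labelled difference, and each test measures the spread between the 3 pigs of a breed.

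Methionine is activated to S-adenosylmethionine, the methyl donor of the cell, by MAT1A in the liver. Methyltransferases use it, AHCY splits the resulting S-adenosylhomocysteine, and homocysteine is either methylated back to methionine by BHMT or MTR or passed through CBS and CTH to cysteine. Cysteine is oxidized by CDO1 on the way to taurine and sulfate, and hydrogen sulfide from cysteine is oxidized in mitochondria by SQRDL (now named SQOR), ETHE1 and TST, with SUOX making sulfate in the last step. The liver is the main site of these reactions in mammals.

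The RPKM of low genes were whole multiples of what 1 read is worth. The totals that the RPKM were divided by, inferred from these values, came out between 5744908 reads in JH1 and 7914514 reads in LD3. In each library the inferred total was below the number of clean reads that the paper reports. The ribosomal RNA gene RN18S ranged from 1570 RPKM in JH2 to 62257 RPKM in JH3, and within each breed it was lowest in the library numbered 2 and highest in the library numbered 3. JH3 was the lowest of the 6 libraries for 25.2% of the 12993 tested genes and LD3 for 30.2%, against between 7.1% and 13.7% for the other 4. Hepatocyte markers were high and lower in sum in JH, at 42700 to 47600 RPKM against 62600 to 78400 RPKM in LD. Most of each sum was albumin (ALB), at 27532.7 to 33598.8 RPKM in JH and 37742.0 to 53893.0 RPKM in LD. TF was at 3828.7 to 10273.8 and 13324.9 to 14756.0 RPKM. Of 8 tested hepatocyte markers 4 had all JH values below all LD values, ALB and TF among them, against 12.5% of all tested genes. By limma 0 were called, against 2.39% of all tested genes. Of the 8, 3 had an unadjusted limma p below 0.05, against 2321 of all 12993 tested genes. APOB was listed at 0 in every library. TTR, FGB, HNF4A and ASGR1 overlapped between the breeds, with log2 differences (JH minus LD) of -0.17, -0.2, 0.22 and 0.08. Summed markers of stellate cells and fibroblasts were 77.4 to 99.3 RPKM in JH and 189 to 388 RPKM in LD. By limma 3 of these 7 were called lower in JH, against 1.36% of all tested genes. Summed bile duct markers were 1.46 to 1.93 and 4.41 to 9.15 RPKM, with EPCAM called lower in JH. Summed endothelial markers were 36.2 to 56.5 RPKM in JH and 65.2 to 78.4 RPKM in LD, with none called. Erythroid markers were 90.1 to 122 and 213 to 393 RPKM, with HBB called lower in JH. Kupffer cell markers (686 to 1680 RPKM in JH, 884 to 1000 RPKM in LD) and lymphocyte markers (12.0 to 45.5 and 15.4 to 18.1 RPKM) overlapped. Of 5 tested Kupffer cell markers 4 had log2 differences above 0, against 6878 of all 12993 tested genes. By limma 2 had an unadjusted p below 0.05 and none was called, while CD163 was listed at 0 in every library. Small intestine markers summed to 0.806 to 1.3 RPKM in JH and 0.0732 to 0.497 RPKM in LD, with CDX2, low throughout, called higher in JH. Exocrine pancreas markers stayed at or below 0.177 RPKM in sum, and SI, ALPI, CPB1 and PNLIP were at 0 throughout. In whole liver, fewer cells of a type and less RNA per cell cannot be told apart, and the part of these cell types in the values below was not tested.

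None of the members was called different between the breeds. A gene counted as called when limma, fitted over the 12993 tested genes, gave it an adjusted p (Benjamini-Hochberg) below 0.05 and its log2 difference exceeded 1 in size. This held for 2.39% of all tested genes, of which 1.02% had the higher level in JH and 1.36% the lower. By limma without adjustment 1 of the 6 members above 0 in every library, GNMT, was below a p of 0.05. So were 2321 of all 12993 tested genes, and voom on recovered reads also called 0 members. SQRDL was left out of the 6, since it was singled out by its values of 0. Since the members were listed with their values known, these counts are a description. MAT1A and GNMT were the 2 members with all 3 JH values above all 3 LD values, a pattern found in 10.8% of all tested genes. No member had all JH values below all LD values, against 12.5% of all tested genes.

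**Figure D1:**
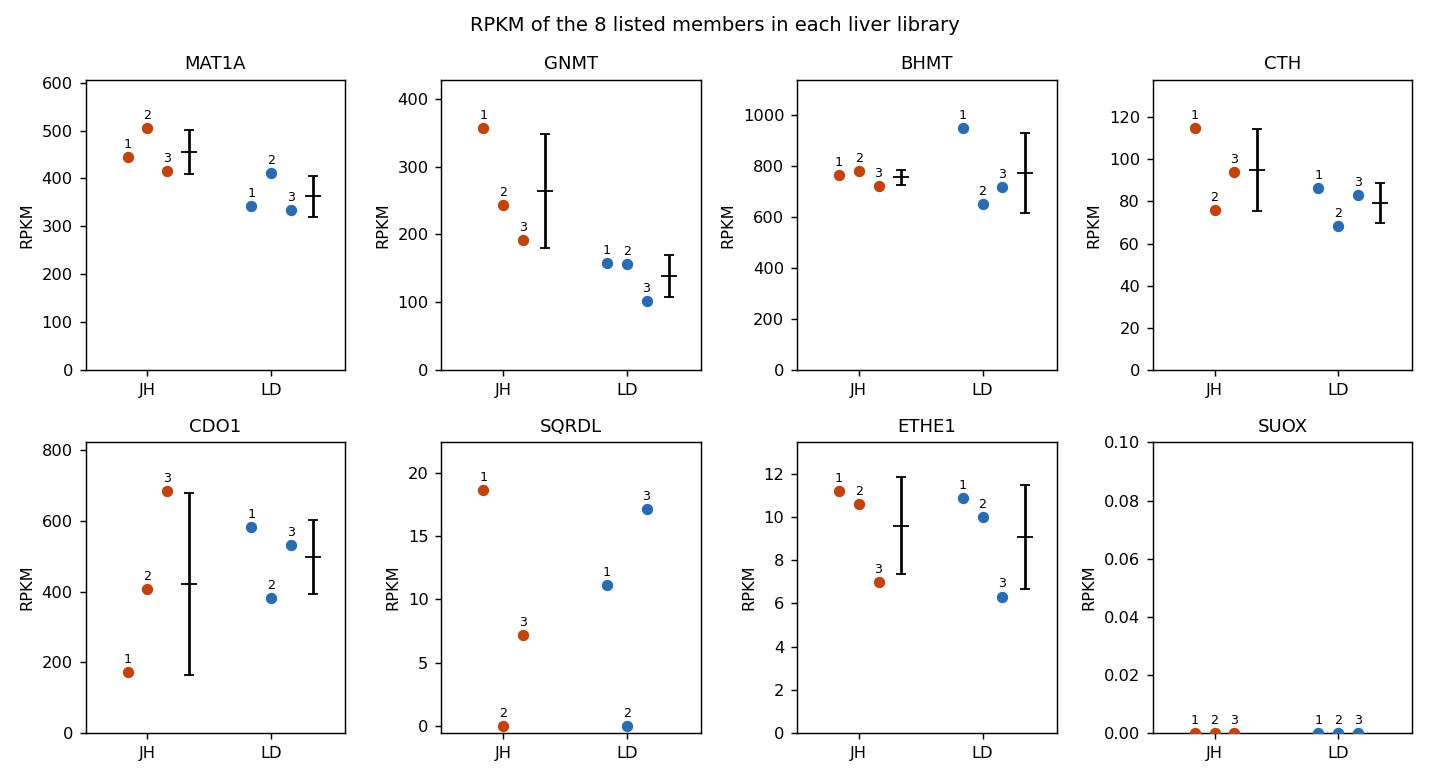
RPKM (vertical axes, each with its own scale) of the 8 listed members in the 3 JH (orange) and 3 LD (blue) libraries, with the replicate number above each point. Black bars give the mean ± SD (n = 3) and are left out for SQRDL and SUOX, which hold values of 0. The JH and LD points lie apart for MAT1A and GNMT only, and by little for MAT1A (lowest JH 415, highest LD 412 RPKM).

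MAT1A was at 445, 505 and 415 RPKM in the 3 JH libraries and at 343, 412 and 334 RPKM in the 3 LD libraries. The lowest JH and the highest LD value almost met, and under quantile normalization they crossed. The difference, JH minus LD on log2(RPKM + 0.1), was 0.33 (standard error 0.23, 95% interval -0.19 to 0.85). MAT1A was among the least variable genes within a breed, with a pooled SD of 0.15 on the log2 scale that exceeded that of 4.6% of the tested genes. Between 8976 and 14427 reads stood behind each of its values, so counting error was about 1.06% at the lowest.

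GNMT, the glycine methyltransferase that consumes S-adenosylmethionine and forms sarcosine, was at 357, 244 and 192 RPKM in JH and at 158, 156 and 102 RPKM in LD. Its means were 264 ± 84.3 (SD, n = 3) and 139 ± 31.4 (SD, n = 3) RPKM, the largest difference among the members. The log2 difference of 0.91 (standard error 0.30, 95% interval 0.22 to 1.6) stayed below the fold limit, and the adjusted p of 0.166 from limma over all tested genes did not pass either. The difference lay between 0.67 and 1.12 when each library was left out in turn. JH1 held the highest and LD3 the lowest value, and in each breed the library numbered 3 was the lowest. In RefSeq (assembly Sscrofa11.1) GNMT overlaps PEX6, which was at 4.15 to 7.05 RPKM in these libraries.

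BHMT, the betaine-homocysteine methyltransferase of liver and kidney, was the most abundant member per length, at 764, 780 and 722 RPKM in JH and 947, 650 and 715 RPKM in LD. The breeds overlapped, with the LD values enclosing the JH values, and the log2 difference was -0.01 (standard error 0.25, 95% interval -0.56 to 0.54). By its mean over the 6 libraries BHMT ranked 96 among the tested genes, CDO1 174, MAT1A 196, GNMT 367 and CTH 776. ETHE1 ranked 4511, and SQRDL ranked 4610 with its values of 0 included, both far below the other members above 0. BHMT was between 65.1 and 113 times the level of ETHE1 in every library.

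CTH, the cystathionine gamma-lyase that releases cysteine, was at 115, 76.0 and 94.1 RPKM in JH and at 86.2, 68.4 and 82.9 RPKM in LD. The groups overlapped, and the log2 difference was 0.25 (standard error 0.25, 95% interval -0.31 to 0.81). In each breed the library numbered 2 was the lowest. CBS, the step before CTH, was not analysed here.

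CDO1, the cysteine dioxygenase, was at 172, 408 and 685 RPKM in JH and at 584, 382 and 531 RPKM in LD. The 3 JH pigs enclosed the LD values, and JH1 stood far below all other libraries. The highest JH value was 3.98 times the lowest, against 1.53 times in LD, and the pooled SD within breeds of 0.75 (log2) was above that of 87.2% of the tested genes. The log2 difference of -0.43 (standard error 0.46, 95% interval -1.46 to 0.59) became 0.11 without JH1. The low value of JH1 rested on 1363 reads, where the other libraries had between 4160 and 7313. JH1 also held the highest CTH value of the 6 libraries. The ratio of CDO1 to CTH was 1.5 in JH1 and between 5.38 and 7.28 in the other 5 libraries, and is given without a test.

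SQRDL, the sulfide quinone oxidoreductase of the inner mitochondrial membrane, was at 18.7, 0 and 7.22 RPKM in JH and at 11.1, 0 and 17.2 RPKM in LD. Whole reads were recovered for its values, and there were 125, 0 and 65 reads in JH and 92, 0 and 158 reads in LD over a gene length of 1164 bases. Both libraries at 0 carry the replicate number 2, one from each breed, and the lowest value above 0 would have given 65 reads at the depth of JH2 and 66 at that of LD2. At their depth 3 reads would be worth 0.332 RPKM in JH2 and 0.326 RPKM in LD2, a limit that covers counting error only. A listed 0 was not read as absence of the transcript, and why SQRDL was at 0 in JH2 and LD2 was not tested. The values above 0 overlapped between the breeds, and no difference is given.

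Of the 5400 genes that reached 10 RPKM in at least 1 library, 5 were listed at 0 in at least 1 library of each breed: AADAT, LOC100625527, LOC102159032, OTOP3 and SQRDL. Among these 5, SQRDL was the one at 0 in only 2 libraries. In all, 27 genes were at 0 in JH2 and LD2 and above 0 in the other 4, and after SQRDL, with a mean of 9.03 RPKM over the 6 libraries, the next was LOC100520928 with 0.989 RPKM. SEMA6D, the gene before SQRDL in the RefSeq order, was between 1.29 and 1.75 RPKM in all 6 libraries. RN18S was lowest in the same libraries within each breed, as given above, and its part in the SQRDL values was not tested.

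**Figure D2:**
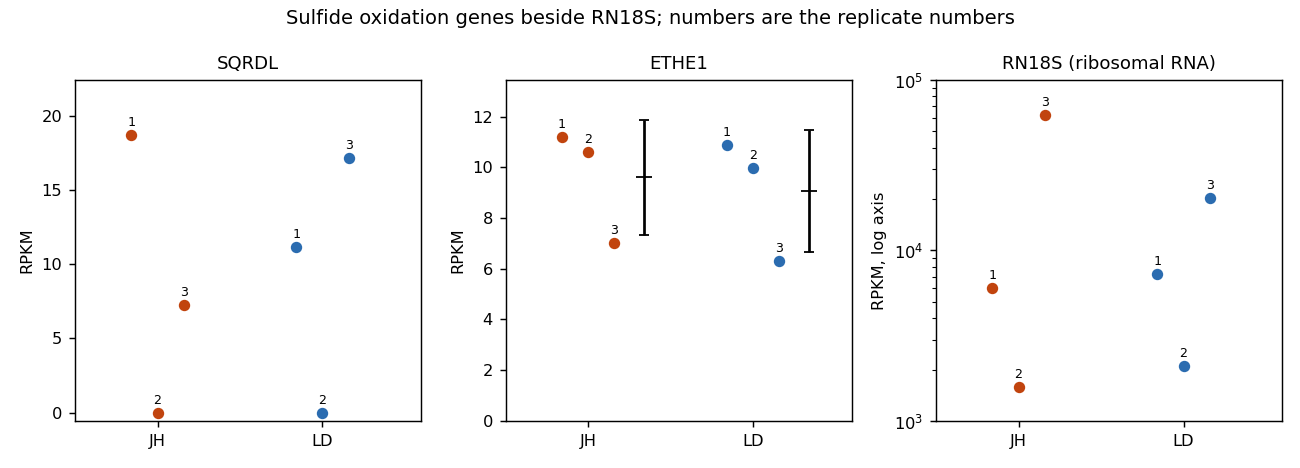
RPKM of SQRDL and ETHE1 (linear axes) and of the ribosomal RNA gene RN18S (log axis) in the 3 JH (orange) and 3 LD (blue) libraries, with replicate numbers, and for ETHE1 the mean ± SD (n = 3) in black. SQRDL is at 0 in both libraries numbered 2, where RN18S is lowest within each breed, and ETHE1 is lowest in both libraries numbered 3, where RN18S is highest.

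ETHE1, the persulfide dioxygenase, was at 11.2, 10.6 and 7.01 RPKM in JH and at 10.9, 9.98 and 6.32 RPKM in LD. The breeds overlapped, and the difference between the library numbered 3 and the other 2 was larger in each breed than the difference between the breeds. The log2 difference was 0.09 (standard error 0.30, 95% interval -0.59 to 0.77). These values rested on 59 to 97 reads, so counting error alone was about 13% at the lowest. In the RefSeq annotation ETHE1 overlaps ZNF575, whose reads, at 1.57 to 4.70 RPKM, may in part be shared, which was not tested.

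SUOX, the sulfite oxidase, was listed at 0 in all 6 libraries. RAB5B and IKZF4, the coding genes on either side of it in the RefSeq order, were also listed at 0 in all 6, while RPS26, next in that order, was at a mean of 863 RPKM. Of 13285 coding genes with a symbol that are named in both the files and RefSeq, 15.0% were at 0 in every library. SHMT2, another gene at 0 throughout, lay in a like run of 3 genes at 0 with NXPH4 and NDUFA4L2. RefSeq describes a later build than the files, so its gene order and overlaps may differ from those the reads were counted on. TST was not analysed here, and its neighbour MPST, a sulfurtransferase that overlaps it in RefSeq, was low, with 18 to 37 reads a library.

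Among all tested genes, the pattern most like that of each member over the 6 libraries was given by the highest Pearson correlation of log2(RPKM + 0.1). It was ZCCHC7 for MAT1A (r = 0.9887), LOC100736726 for GNMT (r = 0.9956), BROX for BHMT (r = 0.9781), LOC102164492 for CTH (r = 0.9963), LOC100621578 for CDO1 (r = 0.9887), LOC102166466 for SQRDL (r = 0.9825) and NUDT17 for ETHE1 (r = 0.9995). Each was the best of all other tested genes over 6 libraries that share their depth and breed, and between 5 and 248 genes exceeded an r of 0.95 with a member, so these are descriptions without a test. NUDT17 followed ETHE1 closely, at 4.72, 4.59 and 3.30 RPKM in JH and 4.64, 4.32 and 3.03 RPKM in LD. No member was the closest gene of another, and their correlations with each other ranged from -0.72 for GNMT with CDO1 to 0.78 for MAT1A with GNMT.

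The surrounding pathway was read from 59 other genes in 8 lists, of which 56 were named in the files and 55 passed the filter of at least 0.5 RPKM in at least 3 libraries. BCKDHA was called higher in JH and MOCS1 lower in JH, and the other 53 did not pass. That is 3.64% of the 55, beside the 2.39% of all tested genes given above. All 3 JH values were above all 3 LD values in 13 of the 55 and below them in 6, or 23.6% and 10.9%, against the 10.8% and 12.5% of all tested genes. The median log2 difference of the 55 was 0.08, and that of all tested genes was 0.04. It was above 0 in 30 of the 55 and in 6878 of all 12993 tested genes. An unadjusted limma p below 0.05 was found for 17 of the 55 and for 2321 of all 12993 tested genes. No set of these genes was tested as a whole.

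**Figure D3:**
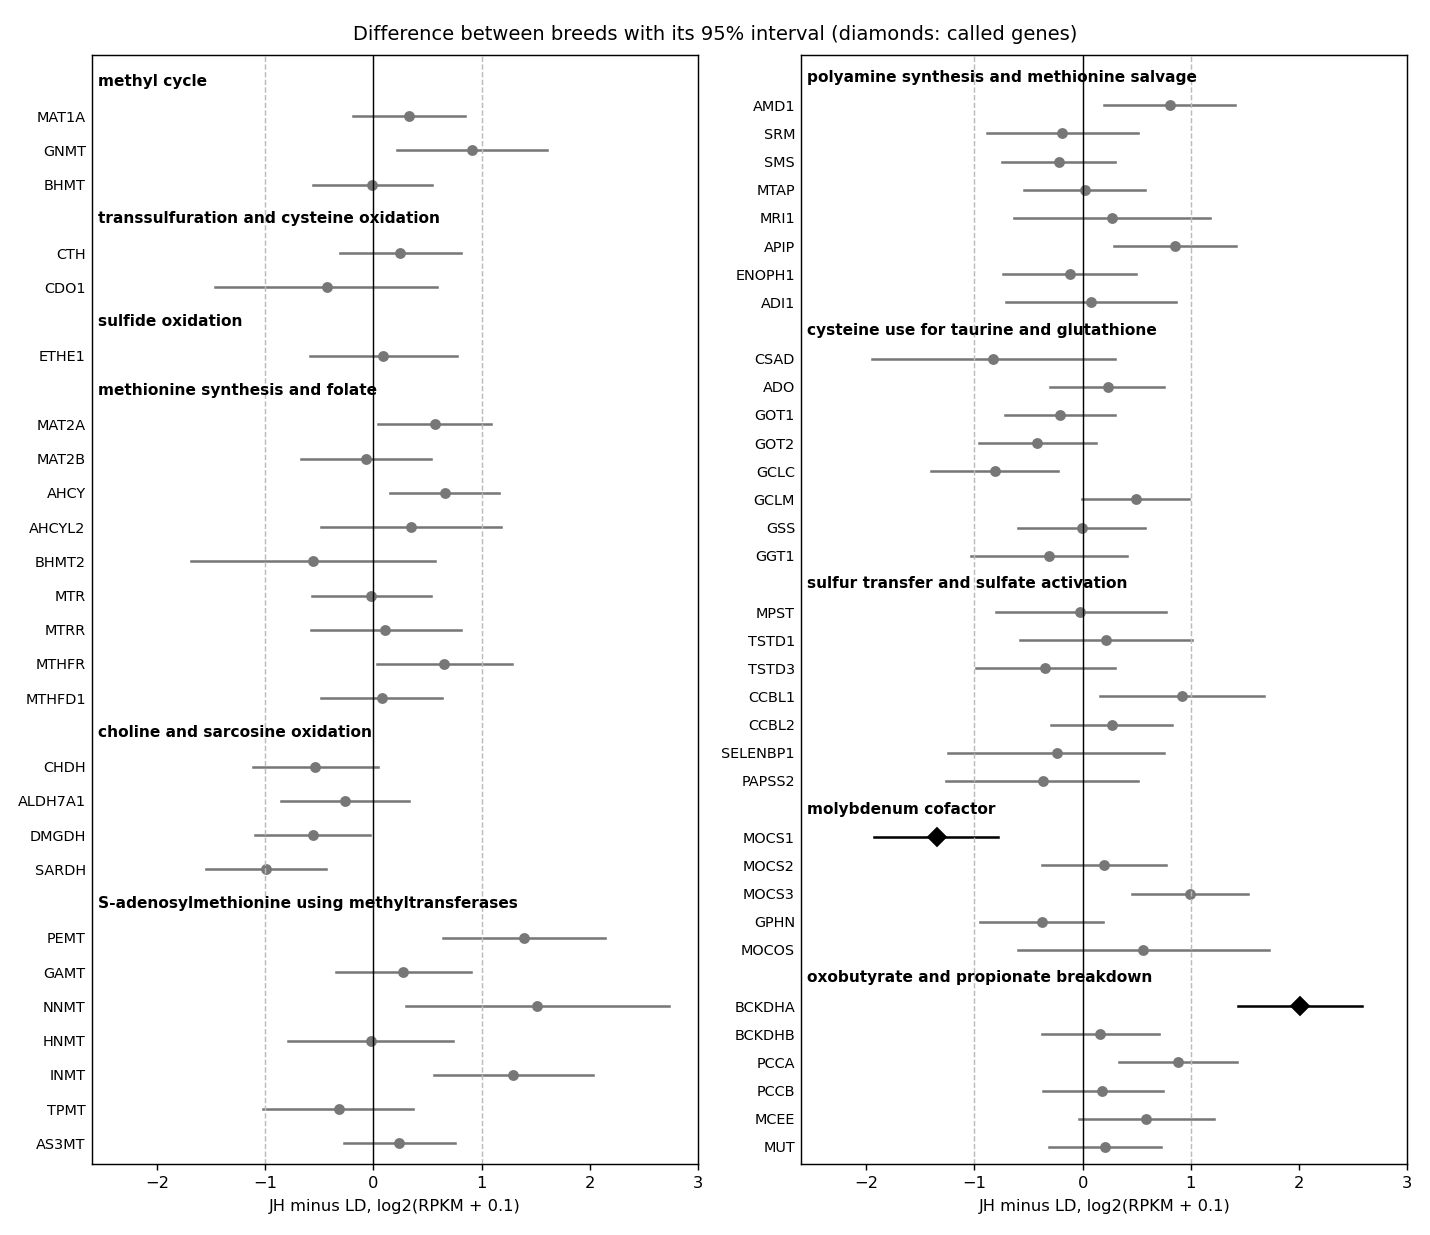
Difference between the breeds, JH minus LD on log2(RPKM + 0.1) (horizontal axes), for the 6 members above 0 in all libraries and related genes grouped by role, with 95% intervals from limma as lines. Dashed lines mark the fold limit of 1 in each direction, and diamonds mark the 2 called genes, MOCS1 at -1.35 and BCKDHA at 2.01.

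In methionine synthesis and folate use, none of 9 tested genes was called by limma or voom. An unadjusted limma p below 0.05 was found for 3, against 2321 of all 12993 tested genes. AHCY, which hydrolyses S-adenosylhomocysteine, was at 127, 105 and 101 RPKM in JH and at 63.9, 73.7 and 73.3 RPKM in LD, without overlap. Its log2 difference was 0.66 (standard error 0.23, limma adjusted p = 0.174). BHMT2, the neighbour and close relative of BHMT, was at 47.0, 247 and 116 RPKM in JH and 158, 175 and 157 RPKM in LD. As for CDO1, the JH pigs enclosed the LD pigs and JH1 was the lowest, and the log2 difference of -0.56 (standard error 0.50, adjusted p = 0.600) became 0.06 without JH1. BHMT was 16.2 times BHMT2 in JH1 and 3.16 to 6.20 times in the other libraries. BHMT2 and BHMT are similar in sequence, so their reads could be divided in an uncertain way, and BHMT2 overlaps DMGDH in RefSeq. The part of either in these values was not tested.

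Of 8 methyltransferases that use S-adenosylmethionine, none was called by limma, and voom called 2, PEMT and INMT. An unadjusted limma p below 0.05 was found for 4, against 2321 of all 12993 tested genes. Of the 8, 5 had a log2 difference above 0, against 6878 of all 12993 tested genes. All JH values were above all LD values in 4 of the 8, against 10.8% of all tested genes. With all 6 libraries the largest difference was that of NNMT, which methylates nicotinamide, at 85.6, 162 and 94.3 RPKM in JH and 14.8, 51.1 and 73.6 RPKM in LD. The log2 difference was 1.51 (standard error 0.54, adjusted p = 0.187), and without LD1, its lowest library, it was 0.83. PEMT and INMT, named after their values were seen, had log2 differences of 1.39 (standard error 0.33, adjusted p = 0.0682) and 1.29 (standard error 0.33, adjusted p = 0.0835). PEMT, which makes phosphatidylcholine, was at 186, 190 and 96.7 RPKM in JH and 52.2, 77.5 and 46.8 RPKM in LD. INMT, which methylates indole amines, was at 291, 680 and 529 RPKM in JH and 209, 200 and 170 RPKM in LD. Beside voom, PEMT passed under quantile normalization, median scaling and without JH3 (adjusted p = 0.0213), and INMT passed without JH1 (adjusted p = 0.0297).

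The 4 genes of choline and sarcosine oxidation all had log2 differences below 0, with a median of -0.55 (-0.71 under quantile normalization). Of all 12993 tested genes, 6115 had a log2 difference below 0. None of the 4 was called by limma or voom, and 2 had an unadjusted limma p below 0.05, against 2321 of all 12993 tested genes. SARDH, which oxidizes the sarcosine that GNMT forms, was at 52.3, 42.7 and 37.9 RPKM in JH and 87.7, 102 and 74.5 RPKM in LD. Every JH value was below every LD value, as for CHDH and DMGDH, a pattern found in 12.5% of all tested genes. The log2 difference of SARDH was -0.99 (standard error 0.24, 95% interval -1.55 to -0.44, adjusted p = 0.0766), near the fold limit. SARDH passed under quantile normalization and median scaling. With voom its log2 difference of -0.99 missed the fold limit, at an adjusted p of 0.0495. The ratio of GNMT to SARDH, formed after both values were seen, was 6.82, 5.71 and 5.06 in JH and 1.80, 1.52 and 1.37 in LD. It is given without a test.

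**Figure D4:**
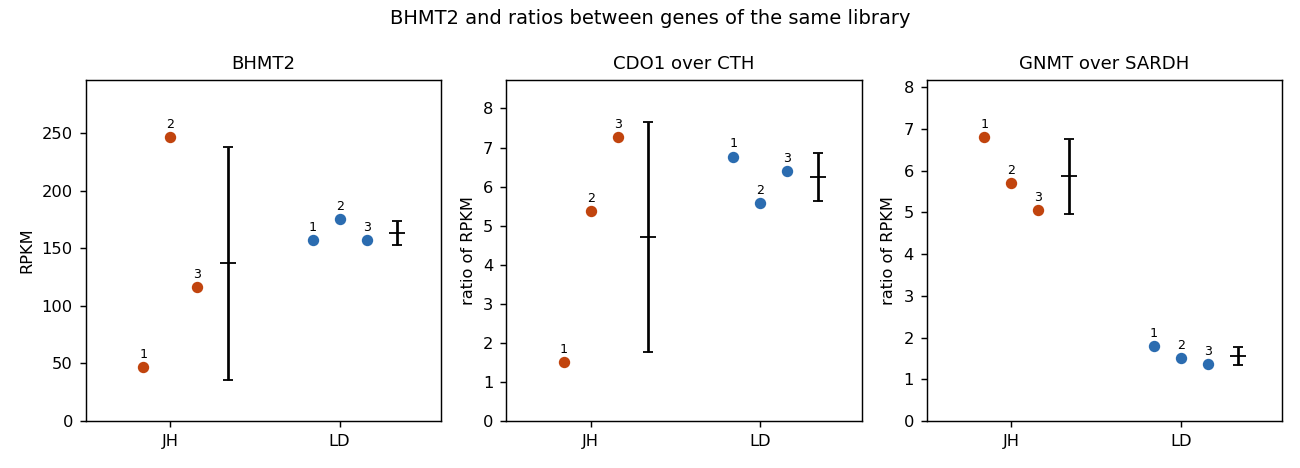
BHMT2 (RPKM), the ratio of CDO1 to CTH and the ratio of GNMT to SARDH (ratios of RPKM) in the 3 JH (orange) and 3 LD (blue) libraries, with replicate numbers and the mean ± SD (n = 3) in black. JH1 is the lowest library for BHMT2 (47.0 RPKM) and for CDO1 over CTH (1.5), and the breeds lie apart for GNMT over SARDH.

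In the breakdown of oxobutyrate, the second product of CTH, and of propionate, all 6 tested genes had log2 differences above 0 and 1 was called. Of all 12993 tested genes, 6878 had a log2 difference above 0 and 2.39% were called. For 2 of the 6 the unadjusted limma p was below 0.05, against 2321 of all 12993 tested genes. All JH values were above all LD values in 2 of the 6, against 10.8% of all tested genes. BCKDHA, a subunit of the branched-chain ketoacid dehydrogenase, was at 11.6, 10.4 and 8.91 RPKM in JH and at 2.87, 2.58 and 2.02 RPKM in LD, without overlap. Its means were 10.3 ± 1.36 (SD, n = 3) and 2.49 ± 0.434 (SD, n = 3) RPKM, and the log2 difference was 2.01 (standard error 0.25, limma adjusted p = 0.00665), a 4.04-fold higher level in JH. BCKDHA was called in all 6 fits that each left out 1 library, with differences between 1.88 and 2.12. The LD values rested on 29 to 37 reads and the JH values on 121 to 147. BCKDHB, the other subunit of the same component and named for that reason after its value was seen, had a log2 difference of 0.16 (standard error 0.24, adjusted p = 0.770).

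Among the 5 genes of the molybdenum cofactor, which SUOX needs, 1 was called, against 2.39% of all tested genes. For 2 of the 5 the unadjusted limma p was below 0.05, against 2321 of all 12993 tested genes. MOCS1, which acts in the first step of cofactor synthesis, was at 13.4, 13.7 and 8.95 RPKM in JH and at 29.8, 34.1 and 27.4 RPKM in LD, without overlap. Its means were 12.0 ± 2.64 (SD, n = 3) and 30.4 ± 3.43 (SD, n = 3) RPKM, and the log2 difference was -1.35 (standard error 0.26, limma adjusted p = 0.0345), a 2.56-fold lower level in JH. The call held in 1 of the 6 fits that left out a library, that without JH3, and the adjusted p was between 0.0624 and 0.123 without JH1, JH2, LD1, LD2 or LD3. MOCS3 was at 14.2, 10.4 and 11.3 RPKM in JH and at 6.30, 5.45 and 5.97 RPKM in LD, and its log2 difference of 0.99 did not pass (standard error 0.24, adjusted p = 0.0680).

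**Figure D5:**
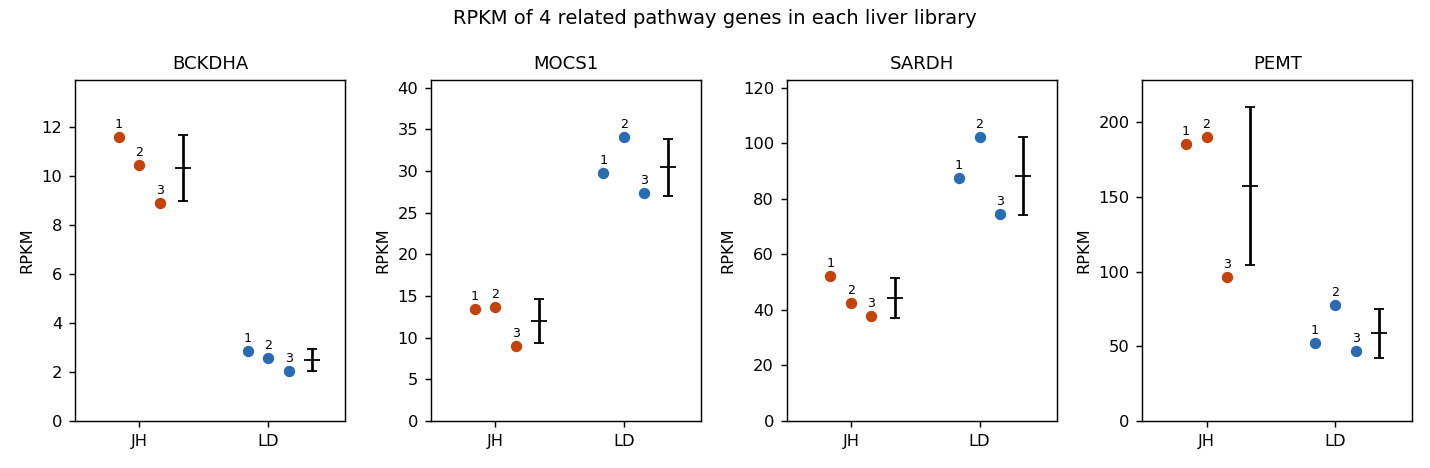
RPKM (vertical axes, each with its own scale, from 0) of BCKDHA, MOCS1, SARDH and PEMT in the 3 JH (orange) and 3 LD (blue) libraries, with replicate numbers and the mean ± SD (n = 3) in black. The breeds do not overlap in any of the 4, and BCKDHA and MOCS1 are the called genes.

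None of the other lists held a gene called by limma or voom. An unadjusted limma p below 0.05 was found for 2 of 8, 1 of 8 and 1 of 7 genes in the order given here. Among all 12993 tested genes it was found for 2321. In polyamine synthesis and methionine salvage, APIP had the highest log2 difference at 0.85 (standard error 0.25, adjusted p = 0.125) and SMS the lowest at -0.22 (standard error 0.23, adjusted p = 0.654). Among genes that turn cysteine into taurine and glutathione, GCLM was at 0.49 (standard error 0.22, adjusted p = 0.292) and CSAD, which follows CDO1 towards taurine, at -0.83 (standard error 0.50, adjusted p = 0.430), which became -0.34 without JH3 and -0.39 without LD2. GCLC, the catalytic partner of GCLM in glutathione synthesis and named after its value was seen, was at -0.81 (standard error 0.26, adjusted p = 0.148). All JH values of GCLC were below all LD values, as in 12.5% of all tested genes. All JH values of GCLM were above all LD values, as in 10.8%. In sulfur transfer and sulfate activation, CCBL1 was at 0.92 (standard error 0.34, adjusted p = 0.198) and PAPSS2 at -0.37 (standard error 0.39, adjusted p = 0.661). Across the 62 tested genes of the members and the lists, JH1 was the highest of the 6 libraries in 41.9%, against 26.0% of all tested genes.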

How the data were processed

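Liver RNA of 3 JH and 3 LD pigs was sequenced, 1 library per pig. The authors aligned 50 bp single reads to the Sus scrofa 10.2 genome with TopHat2 2.0.13, used gfold for gene-level counting, and deposited an RPKM for every gene and library. The small RNA files were not used. Libraries were grouped by their public titles. Members and lists were chosen with earlier results of these data known.

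Breeds were compared with limma 3.58.1 (R 4.3.3; lmFit, eBayes with trend) on log2(RPKM + 0.1) for the 12993 genes that reached 0.5 RPKM in 3 or more libraries, in place of the DEGseq test of the authors, which pools reads. The pseudocount shrinks the fold change of low genes. The named genes were the members, called genes and the most extreme gene of each list in each direction, and the gene closest to each member. One gene of the lists is counted but not reported here by name, nor plotted. Whole reads were recovered for 17792 of 19614 genes above 0 by searching the total and gene length that make all 6 values whole; PCR copies were not marked, so read numbers cover counting error only. Both steps were tested on simulated data. Alternatives were other pseudocounts, no filter, quantile and median scaling, a replicate block, voom on recovered reads, no fold limit, and each library left out. Tables and plots used Python 3.11.15, pandas 2.3.3, numpy 2.4.6 and matplotlib 3.10.9. Gene order came from RefSeq (Sscrofa11.1), which matched all 10 member names, one by its synonym.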

Additional observations from a re-analysis of the deposited data

How the results depend on the processing

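None of the 6 members above 0 in every library was called under any alternative run. The number of called genes among all tested was 310, with 199 at a pseudocount of 0.01 (83 higher in JH), 200 with no filter on low values (76 higher in JH), and from 79 (without LD1) to 406 (without JH3) when 1 library was dropped. Of these, 41 to 176 were higher in JH, against 133 with all libraries. Of the related genes 2 were called, 4 under quantile normalization and median scaling (BCKDHA, PEMT, MOCS1 and SARDH), 4 with voom on recovered reads (BCKDHA, INMT, PEMT and MOCS1) and 1 to 3 when 1 library was dropped (1 without JH2, LD1, LD2 or LD3). With 1 library dropped, the difference of BHMT2 ranged from -1.14 to 0.06 (without JH1) and that of PAPSS2 from -0.74 to 0.07 (without JH3). With the replicate block 253 genes were called, of which 200 were among the 310, and 3 of the related genes, PEMT added. The replicate numbers were not taken as pairs: deviations of same-numbered libraries from their breed means correlated at -0.02, 0.05 and 0.18, and JH1 and JH2 correlated best with another number. Depth limited the low genes most, with a counting error at the lowest read number of about 13% for ETHE1, 18.6% for BCKDHA and 23.6% for MPST, against 0.865% for BHMT.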
